A study of Mus musculus with 9 samples.

Results

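The kinesins are the motor proteins that move along microtubules, and the array used here carried 61 probes for 42 mouse kinesin genes, of 36373 genes and features in all. They were chosen by name alone, as every probe that is no control and whose gene name begins with Kif and a number or with Kifc and a number. For each gene the probe with the highest mean signal was used. By their known roles, 14 of the genes were placed among the mitotic kinesins, 15 among the transport kinesins and 12 among other kinesins, and 1 is a pseudogene, Kifc5c-ps. A filter kept probes that stood well above background on 3 or more of the 9 arrays, which left 40 of the 42 genes and 28365 genes and features in all. Kif14 and Kif2b did not pass.

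Kinesins bind microtubules through a motor domain that splits ATP, and the rest of the chain decides what the motor carries or holds. The mitotic kinesins are made mainly in dividing cells, where they push spindle poles apart, move and align chromosomes, shorten microtubule ends and build the midzone at which daughter cells separate. The transport kinesins work in dividing and resting cells alike and carry vesicles, mitochondria and ciliary cargo, several of them best known from nerve cells. Satellite cells, from which muscle regenerates, seldom divide at rest, so the mitotic group is known there as a mark of cells that have entered the cycle.

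The arrays measured RNA of satellite cells sorted from skeletal muscle of FVB mice that were Bmi1-deficient (KO) or wild type (WT), with an age of 2 months and male sex on the labels of both groups. Bmi1 is a subunit of a Polycomb complex that keeps genes silent, and the series concerns how muscle stem cells of aged animals lose their resting state. The sort kept cells with integrin alpha-7 and CD34 and removed those with CD31, CD45, CD11b or Sca1, and the RNA was amplified before it was labelled with Cy3. The labels do not say which part of Bmi1 was removed, or in which cells.

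There were 6 KO and 3 WT arrays. The KO arrays formed 3 pairs with a shared number in their descriptions, and within such a pair the correlation over probes was 0.9944 to 0.9956, against 0.962 to 0.979 in the 33 other pairs of arrays. The arrays of a pair were averaged into 1 sample, which gave 3 KO and 3 WT samples. The titles number the 6 KO arrays as biological replicates 1 to 6, so taking a pair as 1 sample rests on the shared numbers and the correlations. KO replicate 1 is KO by title and source, while its genotype field says wild type; its correlation was 0.9953 with KO replicate 4 and 0.9663, 0.9701 and 0.9622 with WT replicates 1, 2 and 3, and it stayed with KO. Between 71.9% and 75.8% of the spots were well above background on each array. Slide 1 held 1 array of each KO sample with WT samples 1 and 3. Slide 2 held the other array of each KO sample with WT sample 2 alone, so slide and WT sample cannot be told apart. Bmi1 itself showed no lower signal in KO. Its normalised log2 signal was 0.58, 0.71 and 0.48 in KO samples 1, 2 and 3, against 0.40, 0.61 and 0.48 in WT samples 1, 2 and 3. Whether the probe lies inside or outside the deleted part is not known, so the deletion could not be checked from this signal. The directions given here are those of the samples as labelled. Whether each sample came from its own animal is not stated, so p reflects the spread among these samples alone, and the number of arrays limits the precision.

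All values are log2 of the background-subtracted spot signal relative to the 75th percentile of the array, and values of 3 samples stand in the order of samples 1, 2 and 3. A level of 1 probe cannot be set against that of another. Differences are KO minus WT with the SE from limma, a linear model fitted over all 28365 genes and features, and p is adjusted over all of them by Benjamini and Hochberg at a threshold of 0.05. By this test 0 kinesin genes changed, as compared to 0.141% of all genes and features, which is 40 of 28365. At an unadjusted limma p under 0.05 there were 10 of the 40 kinesin genes, of which 7 lay lower and 3 higher in KO, while 11.0% of all genes and features had such a p.

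The mitotic kinesins lay lower in the KO samples as a group of genes, while the transport kinesins lay near 0. All 12 measured mitotic kinesins had a difference below 0, against 52.8% of all genes and features. Their median difference was -0.86, with a range of -1.37 to -0.13, and the median over all genes and features was -0.017. The 15 transport kinesins, all measured, had a median of -0.059, with 8 below 0 and 7 above. The 12 other kinesins had a median of -0.034, with 8 below 0 and 4 above.

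**Figure D1:**
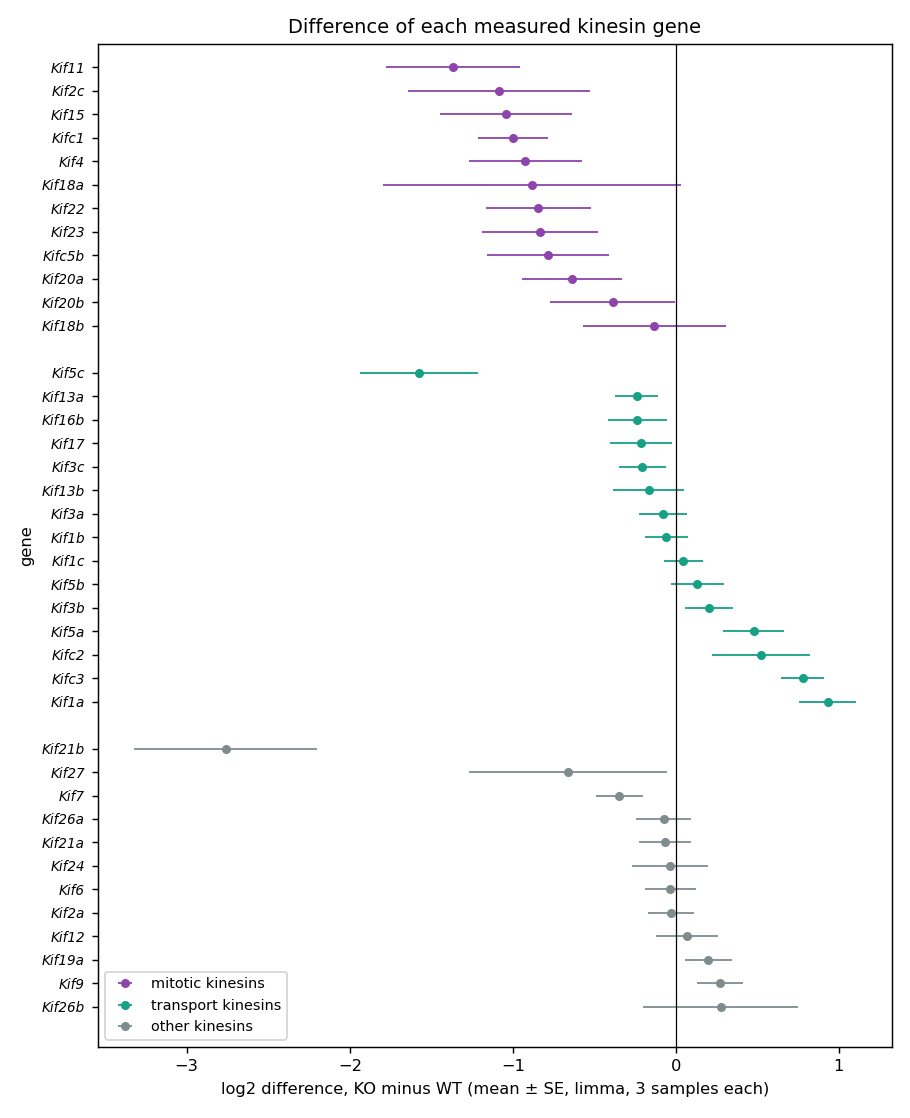
Log2 difference, KO minus WT, of each measured kinesin gene (x axis) by gene (y axis), as the mean ± SE from limma with 3 samples each, coloured by class. All 12 mitotic kinesins lie left of 0, 14 of the 15 transport kinesins lie between -0.24 and 0.93 with Kif5c at -1.57, and Kif21b, among the other kinesins, lies at -2.76.

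The KO samples differed among themselves more than the WT samples did. The median over the 12 genes of the difference from the WT mean was -0.77, -0.23 and -1.55 in the KO samples, against -0.23, 0.12 and 0.10 in WT. KO sample 3 was the lowest of the 6 samples in 12 of the 12 genes, against 16.3% of all genes and features. KO sample 2 was the highest of the KO samples in 11 of the 12, against 26.6%. KO sample 1 lay below all 3 WT samples in 10 of the 12 genes, KO sample 2 in 7 and KO sample 3 in 12, while the same held for 27.2%, 32.0% and 25.0% of all genes and features. Without KO sample 3 the median difference of the mitotic kinesins was -0.48, and without KO sample 2 it was -1.17. Of single genes, Kif2c was -0.72, Kif15 -0.63, Kif4 -0.59, Kif22 -0.52, Kif23 -0.45 and Kifc5b -0.42 without KO sample 3, and Kif2c -1.74 without KO sample 2. The same median was -0.90 on slide 1 and -0.90 on slide 2, which held arrays of the same 3 KO samples. With the slide as a block it was also -0.90, but there the value of each gene is the mean of its values on the slides, so it adds no further check. In sorted cells measured in bulk, fewer cycling cells and less of these RNAs in each cell cannot be told apart.

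In 6 of the 12 genes all 3 KO samples lay below all 3 WT samples, against 8.09% of all genes and features. These were Kif11, Kif15, Kifc1, Kif4, Kif22 and Kif23. At an unadjusted limma p under 0.05 there were 5, against 4.21%, namely the same list without Kif23. Groups of 3 samples that do not overlap always have an exact two-sided permutation p = 0.1, the smallest that 3 against 3 allow. For these 6 genes that p therefore adds nothing to the separation.

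Among the motors that build the spindle, Kif11 slides the microtubules of both poles apart and is needed for a bipolar spindle. Its log2 signal was -1.65, -1.004 and -2.67 in the KO samples, against -0.52, -0.30 and -0.41 in the WT samples. The WT samples stood close together, and the KO samples all lay below them and were spread wide. The means were -1.78 ± 0.84 in KO and -0.41 ± 0.11 in WT (SD, n = 3 each), so that the difference was -1.37 ± 0.41 (SE; limma adjusted p = 0.30), and WT stood 2.58-fold over KO. The probe lies on chromosome 19 from 37495755 to 37495814 (mm9, plus strand).

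Kif15 can take over from Kif11 in holding the poles apart. Its signal was -3.38, -2.57 and -4.21 in the KO samples, against -2.30, -2.24 and -2.51 in the WT samples. The groups did not overlap, although KO sample 2 came within 0.063 of the lowest WT sample, and the difference was -1.04 ± 0.40 (SE; limma adjusted p = 0.43).

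Kifc1 is a motor that walks to minus ends and gathers microtubules at the poles. It had 0.11, 0.39 and -0.40 in the KO samples, against 1.04, 1.02 and 1.05 in the WT samples. The WT samples were nearly equal and every KO sample lay clearly below them. The means were 0.037 ± 0.40 in KO and 1.03 ± 0.017 in WT (SD, n = 3 each), a difference of -0.998 ± 0.215 (SE; limma adjusted p = 0.17), which was the lowest adjusted p of the mitotic kinesins. Its probe lies on chromosome 17 from 34018375 to 34018434 (mm9, minus strand).

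Kifc5b, a close copy of Kifc1, had -2.79, -3.20 and -4.08 in the KO samples, against -2.27, -3.004 and -2.43 in the WT samples. Here KO sample 1 lay above WT sample 2, so the groups overlapped, and the difference was -0.79 ± 0.37 (SE; limma adjusted p = 0.53). It was -1.18 within slide 1 and -0.18 within slide 2, where WT sample 2 was the only WT sample. The pseudogene Kifc5c-ps differed by -0.10 ± 0.12, and another Kifc5c-ps probe gave -0.47 with overlapping samples. Probes of such close copies may bind each other's cDNA, which was not tested.

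Kif4 and Kif22 are chromokinesins, which sit on chromosome arms. Kif4 helps to condense chromosomes and later works with Prc1 at the midzone, and it had -1.73, -1.03 and -2.37 in the KO samples, against -1.01, -0.77 and -0.57 in the WT samples. KO sample 2 lay just under WT sample 1, the other KO samples lay well below, and the difference was -0.92 ± 0.35 (SE; limma adjusted p = 0.41). Kif22, which pushes chromosome arms toward the spindle equator, had -0.40, 0.012 and -1.17 in the KO samples, against 0.092, 0.32 and 0.57 in the WT samples. It followed the same order, with KO sample 2 just under WT sample 1, and differed by -0.84 ± 0.32 (SE; limma adjusted p = 0.42).

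The measured motors of cytokinesis gave differences between -0.83 and -0.39. Kif23, the motor of centralspindlin, which bundles the midzone, had 1.53, 2.07 and 0.65 in the KO samples, against 2.12, 2.38 and 2.25 in the WT samples. The groups came close but did not overlap, and the difference was -0.83 ± 0.36 (SE; limma adjusted p = 0.48). Kif20a, which brings the chromosomal passenger complex to the midzone, had -1.29, -0.87 and -1.64 in the KO samples, against -1.16, -0.48 and -0.24 in the WT samples. KO sample 2 lay above WT sample 1, and the difference was -0.64 ± 0.31. Kif20b, which acts late, when the daughter cells part, had -3.74, -2.80 and -4.18 in the KO samples, against -3.58, -2.92 and -3.06 in the WT samples. KO sample 2 was the highest of all 6, and the difference of -0.39 ± 0.38 was about its own error, with -0.083 without KO sample 3 and -0.77 without KO sample 2.

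The motors that shorten microtubule ends were the least even. Kif2c, which takes apart the ends at centromeres and so frees wrongly attached chromosomes, had -2.41, -0.53 and -2.57 in the KO samples, against -1.03, -0.49 and -0.74 in the WT samples. KO samples 1 and 3 lay far below the WT samples and KO sample 2 lay among them, and the difference was -1.08 ± 0.56 (SE; limma adjusted p = 0.56). Another Kif2c probe gave -1.12. Kif18a, which damps the swings of aligned chromosomes, had -5.09, -3.29 and -7.05 in the KO samples, against -4.75, -3.86 and -4.18 in the WT samples. It was well above background on 4 of the 6 KO arrays and all 3 WT arrays, its KO samples enclosed the WT samples, and the difference of -0.88 ± 0.91 was 0.071 without KO sample 3.

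Kif18b, which shortens astral microtubules, had -2.97, -2.26 and -3.73 in the KO samples, against -3.46, -2.66 and -2.44 in the WT samples. The groups overlapped throughout, and the difference of -0.13 ± 0.44 was 0.24 without KO sample 3 and 0.074 without WT sample 3. Kif14, a partner of citron kinase in cytokinesis, was well above background on 1 of the 9 arrays, that of WT sample 3. Kif2b, a relative of Kif2c, was well above background on 0 of the 9. Neither was tested.

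**Figure D2:**
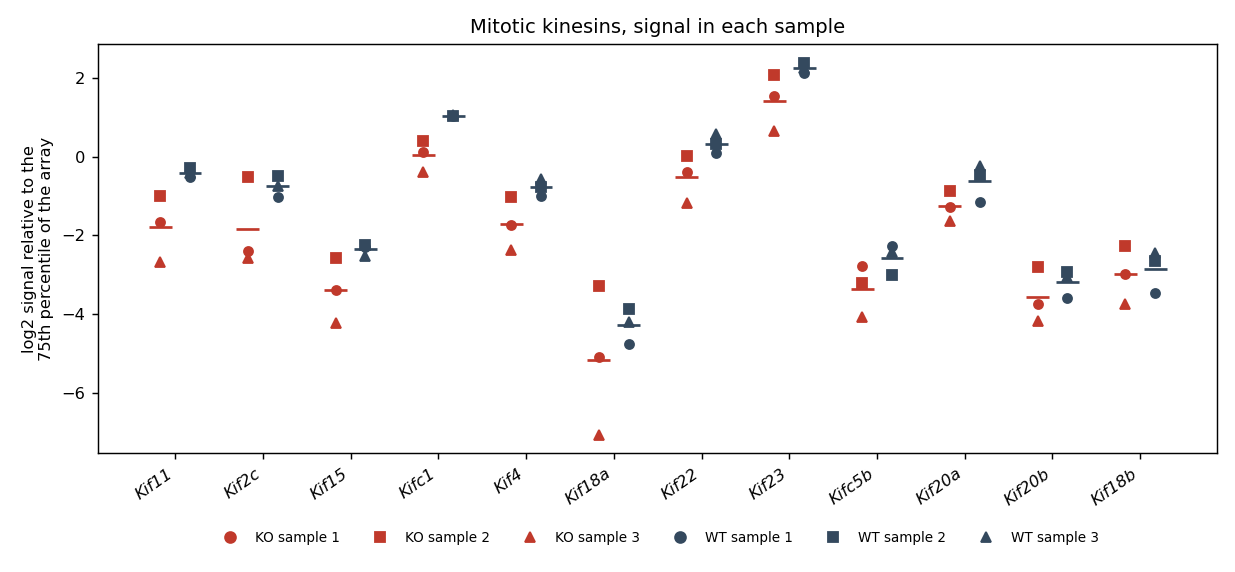
Signal of each measured mitotic kinesin (x axis) as log2 relative to the 75th percentile of the array (y axis), with 1 mark for each of the 3 KO samples (red) and 3 WT samples (blue) and a line at each group's mean. KO sample 3 (red triangle) is the lowest mark of every gene, KO sample 2 (red square) lies nearest to WT in most, and the 3 WT samples of Kifc1 lie between 1.02 and 1.05.

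Promoters of the mitotic kinesins were read because these genes lay on the same side of 0 together. The windows are those of RefSeq (build GRCm38.p6), from 250 bases before to 50 bases after the start of transcription. They were read for 13 mitotic genes (all but Kif20a, which was left out), 10 transport genes and 10 other kinesin genes. A few of these genes have more than 1 window. Cell cycle genes of the G2 and M phases often carry a cell cycle homology region, with the core TTTGAA, near their start, and a CCAAT box, bound by the factor NF-Y, a short way before it. Both were searched on both strands, and a match of one could share an end base with a match of the other. The stretches below run from 60 bases before to 26 bases after the start, 5′ to 3′ on the strand of the gene, with both motifs in capitals (TTTGAA or its reverse complement TTCAAA, and CCAAT or its reverse complement ATTGG). They show the 6 genes whose groups did not overlap, then the 2 with the smallest differences, and last Kif1c, the transport kinesin with the brightest probe.
Kif11 (chr19:37376322-37376407, plus strand): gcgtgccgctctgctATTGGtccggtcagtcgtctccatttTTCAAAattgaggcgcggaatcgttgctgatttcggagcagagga
Kif15 (chr9:122951021-122951106, plus strand): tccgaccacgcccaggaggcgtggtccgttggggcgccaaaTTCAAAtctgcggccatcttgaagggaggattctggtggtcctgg
Kifc1 (chr17:33890608-33890693, minus strand): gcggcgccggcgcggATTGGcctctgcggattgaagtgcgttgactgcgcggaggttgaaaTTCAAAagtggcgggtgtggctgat
Kif4 (chrX:100626005-100626090, plus strand): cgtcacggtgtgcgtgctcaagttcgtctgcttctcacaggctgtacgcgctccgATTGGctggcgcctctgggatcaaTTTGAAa
Kif22 (chr7:127042395-127042480, minus strand): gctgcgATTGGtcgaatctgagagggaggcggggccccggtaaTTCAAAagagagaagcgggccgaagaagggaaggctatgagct
Kif23 (chr9:61946774-61946859, minus strand): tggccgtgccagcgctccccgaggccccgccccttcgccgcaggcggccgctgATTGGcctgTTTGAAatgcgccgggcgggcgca
Kif20b (chr19:34922298-34922383, plus strand): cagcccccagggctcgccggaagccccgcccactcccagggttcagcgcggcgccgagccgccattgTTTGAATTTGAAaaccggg
Kif18b (chr11:102925099-102925184, minus strand): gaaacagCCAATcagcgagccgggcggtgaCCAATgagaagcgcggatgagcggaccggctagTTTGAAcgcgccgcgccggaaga
Kif1c (chr11:70700488-70700573, plus strand): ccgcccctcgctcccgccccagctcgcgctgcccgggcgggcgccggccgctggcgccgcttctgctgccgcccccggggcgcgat

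The 8 mitotic stretches all hold the TTTGAA core, and Kif20b holds it in direct repeat, while the Kif1c stretch holds neither motif. A CCAAT box stood before the core in 6 of the 8, with 21 bases between them in Kif11, 41 in Kifc1, 19 in Kif4, 32 in Kif22, 4 in Kif23 and 28 from the nearer box in Kif18b. Over the whole windows of 300 bases, the core was in 11 of the 13 mitotic promoters (84.6%), 1 of 12 transport promoters (8.33%), 2 of 12 other kinesin promoters (16.7%) and 17.9% of all 32851 promoters. Kif18a and Kif2b were the mitotic genes without it, and Kif1a the transport gene with it. The CCAAT box was in 9 of the 13 mitotic promoters (69.2%), 4 of 12 transport promoters (33.3%) and 37.4% of all. Both motifs together were in 8 of the 13 (61.5%), in 0 of 12 transport promoters and in 6.95% of all.

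The core was present in genes with a small difference, such as Kif18b and Kif20b, as well as in Kif11. An E2F core, GCGGGAA, was in 0 of the 13 mitotic promoters and 4.6% of all, and the variant core TTCGAA was in 0 of the 13 and 1.56% of all. The GC box GGGCGG was in 6 of the 13 mitotic promoters (46.2%), 9 of 12 transport promoters (75%) and 35.7% of all. Promoters of the chromosome that holds Kif20a and Kif5b were left out, also from the shares of all promoters. A match describes letters in these windows, and binding was not measured. The mitotic genes were grouped by known roles that go with cell cycle control, so the shares describe the list.

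**Figure D3:**
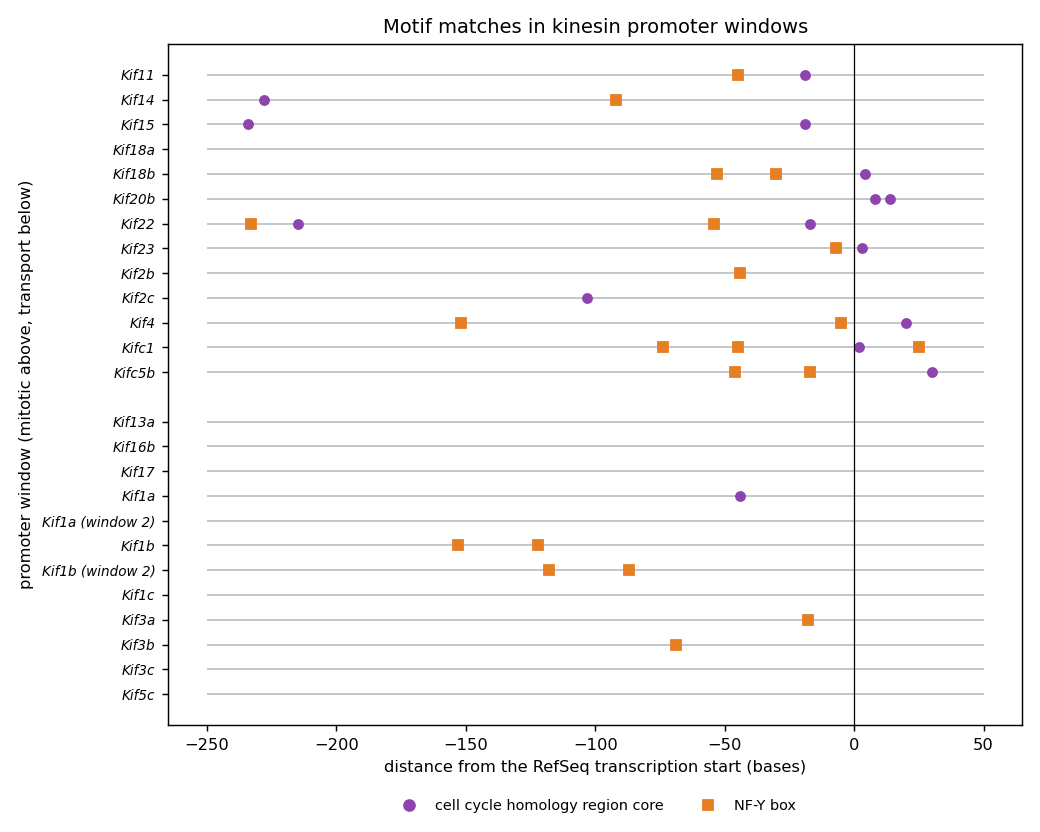
Positions of the TTTGAA core (circles) and the CCAAT box (squares), on either strand, in the promoter windows of the mitotic kinesins (upper rows) and the transport kinesins (lower rows), as bases from the RefSeq start of transcription (x axis, the start at 0). The circles of the mitotic genes gather near the start, while 1 of the 12 transport windows, that of Kif1a, holds a circle.

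The genes that work beside the mitotic kinesins lay lower in the same samples. Of 18 listed partners of these motors, such as the passenger complex, centralspindlin and the microtubule bundler Prc1, all 18 had a difference below 0, with a median of -0.91. Hmmr (-0.020) and Numa1 (-0.073) lay close to 0. The list also holds Cenpe (-0.87), itself a mitotic kinesin that the name rule does not cover. In 10 of the 18 all KO samples lay below all WT samples, against 8.09% of all genes and features, and 11 had an unadjusted limma p under 0.05 and lay lower, against 4.21%. By the adjusted threshold 0 of the 18 passed, against 0.141%. The median difference from the WT mean was -0.78, -0.46 and -1.51 in the KO samples and -0.21, 0.032 and 0.19 in the WT samples, so the KO samples stood in the same order as for the kinesins themselves.

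The members with the smallest p were Cit, the citron kinase that Kif14 binds, with -0.94 ± 0.16, Cdca8, a subunit of the passenger complex that Kif20a carries, with -1.0003 ± 0.25, and Prc1, which holds Kif4 at the midzone, with -1.13 ± 0.31 (SE; limma adjusted p of 0.11, 0.22 and 0.27). Cit had 0.88, 1.14 and 0.60 in the KO samples, against 1.85, 1.79 and 1.79 in the WT samples. The WT samples of Cit were nearly equal, and all KO samples lay below them. A list of 21 general proliferation genes gave 21 below 0 and a median of -0.80, with Ube2c at -1.49, Ccnb1 at -1.34 and Cdc20 at -1.18. Its medians were -0.59, -0.46 and -1.45 in the KO samples and -0.10, -0.061 and 0.13 in the WT samples.

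**Figure D4:**
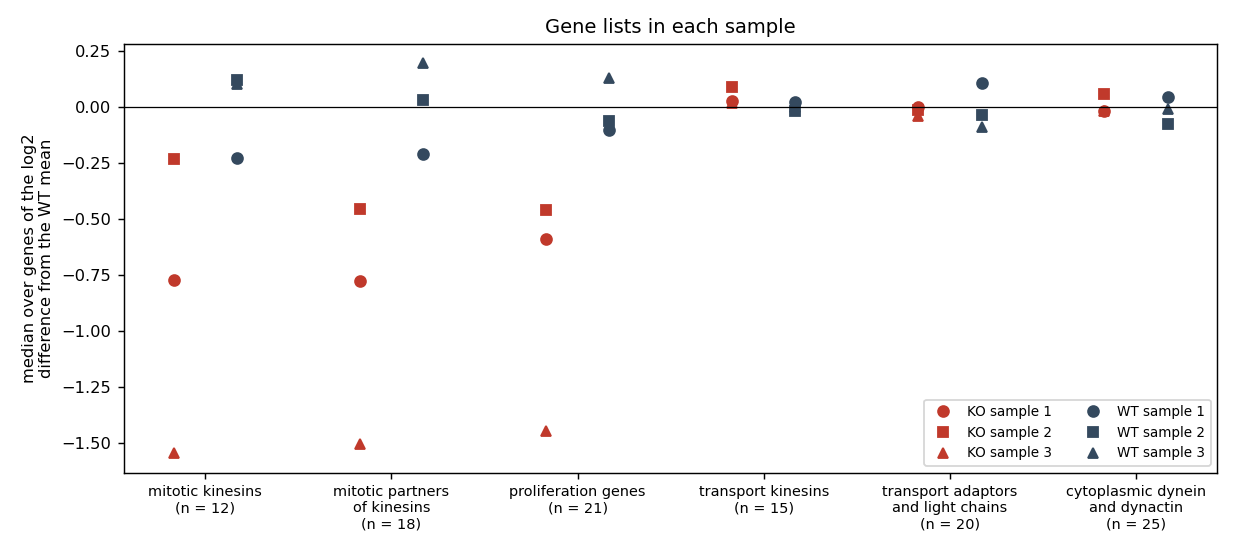
Median over the genes of each list (x axis, with the number of measured genes) of the log2 difference from the WT mean (y axis), with 1 mark for each of the 3 KO samples (red, left) and 3 WT samples (blue, right). The 3 lists of cell division share the order of the KO samples, with KO sample 3 lowest and KO sample 2 highest, while the 3 lists of transport lie between -0.092 and 0.11 in every sample.

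Among the transport kinesins the values lay on both sides of 0. In 2 genes, Kif5c and Kif13a, all KO samples lay below all WT samples, against 8.09% of all genes and features, and in 3, Kif1a, Kifc3 and Kif5a, all lay above, against 8.62%. At an unadjusted limma p under 0.05 there was 1 gene lower, Kif5c, and 3 higher, the same Kif1a, Kifc3 and Kif5a, against 4.21% and 6.77% of all genes and features. The exact permutation p of each of the 5 genes is 0.1 because their groups do not overlap, and it adds nothing to that. The 3 KO samples had like medians of 0.025, 0.090 and 0.019 over the 15 genes, against 0.020, -0.018 and -0.00028 in the WT samples, with no place for KO sample 3 apart from the rest.

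The kinesin-1 heavy chains carry vesicles, mitochondria and RNA, with Kif5b in all cells and Kif5a and Kif5c mainly in neurons. Kif5c had -3.06, -3.41 and -2.34 in the KO samples, against -1.76, -1.52 and -0.80 in the WT samples. The groups stood apart, with WT sample 3 the highest and KO sample 3 the highest of the KO samples. The means were -2.93 ± 0.55 in KO and -1.36 ± 0.50 in WT (SD, n = 3 each), a difference of -1.57 ± 0.36 (SE; limma adjusted p = 0.19), with WT 2.98-fold over KO. It was -1.68 within slide 1 and -1.39 within slide 2, and its probe lies on chromosome 2 from 49630228 to 49630287 (mm9, plus strand).

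Kif5a had -1.99, -2.41 and -2.60 in the KO samples, against -2.78, -2.94 and -2.71 in the WT samples. KO sample 3 lay only just above the WT samples, and the difference was 0.48 ± 0.19 (SE; limma adjusted p = 0.43). Another Kif5a probe, well above background on 7 of the 9 arrays, gave -1.66, and the mean of both gave -0.59, so the direction of Kif5a depends on the probe. Kif5b, the general kinesin-1 motor, had -2.68, -2.59 and -2.50 in the KO samples, against -3.01, -2.51 and -2.65 in the WT samples. The groups overlapped, and the difference was 0.13 ± 0.16.

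The kinesin-3 motors carry vesicles over long distances. Kif1a, which moves synaptic vesicle precursors in axons, had -0.18, 0.048 and 0.36 in the KO samples, against -0.91, -0.70 and -0.96 in the WT samples. All KO samples lay above all WT samples, with KO sample 3 highest. The means were 0.074 ± 0.27 in KO and -0.86 ± 0.14 in WT (SD, n = 3 each), a difference of 0.93 ± 0.18 (SE; limma adjusted p = 0.13), with KO 1.91-fold over WT. It was 1.01 within slide 1 and 0.77 within slide 2. A dimmer Kif1a probe gave 0.37 with overlapping samples, at -3.96, -3.97 and -2.35 in KO and -3.05, -4.53 and -3.81 in WT.

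Kif1b, which carries mitochondria and vesicles, had 2.19, 2.37 and 2.35 in the KO samples, against 2.52, 2.35 and 2.23 in the WT samples. Kif1c, which moves vesicles and integrins in migrating cells, had 2.44, 2.39 and 2.21 in the KO samples, against 2.35, 2.24 and 2.31 in the WT samples. In both genes the samples of the groups lay among each other, with differences of -0.059 ± 0.13 for Kif1b and 0.046 ± 0.12 for Kif1c. Other Kif1c probes gave -0.28 and -0.0072.

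Kif13a, which carries recycling endosomes, had 1.54, 1.65 and 1.49 in the KO samples, against 1.98, 1.69 and 1.73 in the WT samples. The gap between the groups was small, and the difference was -0.24 ± 0.13 (SE; limma adjusted p = 0.60). Kif13b, its close relative, had 0.26, 0.077 and 0.70 in the KO samples, against 0.75, 0.24 and 0.55 in the WT samples. Its groups overlapped, with a difference of -0.17 ± 0.22. Kif16b, which places early endosomes, differed by -0.24 ± 0.18.

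The kinesin-2 motors build cilia and carry other cargo. Kif3a, the shared chain of this motor, had 0.88, 1.25 and 1.11 in the KO samples, against 1.18, 1.02 and 1.27 in the WT samples, and Kif17, which works beside it in cilia and in dendrites, had -0.35, -0.96 and -0.44 in the KO samples, against -0.46, -0.28 and -0.38 in the WT samples. At these probes neither gene separated the groups, and only KO sample 2 of Kif17 lay away from the rest. The differences were -0.079 ± 0.15 for Kif3a, 0.20 ± 0.15 for Kif3b, -0.21 ± 0.14 for Kif3c and -0.21 ± 0.19 for Kif17. Another Kif3a probe gave 0.33, with 0.82, 1.11 and 1.27 in the KO samples, against 0.76, 0.71 and 0.74 in the WT samples. There all KO samples lay above all WT samples, so whether Kif3a separates the groups depends on the probe.

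Kifc3 is a motor that walks to minus ends and serves Golgi transport and cell junctions. It had -0.76, -0.65 and -0.95 in the KO samples, against -1.54, -1.50 and -1.65 in the WT samples. The samples of each group stood close together and the groups lay apart. The means were -0.78 ± 0.15 in KO and -1.56 ± 0.077 in WT (SD, n = 3 each), a difference of 0.78 ± 0.13 (SE; limma adjusted p = 0.11), which was the lowest adjusted p of all 40 kinesins, with KO 1.71-fold over WT. It was 0.92 within slide 1 and 0.60 within slide 2. With normexp background correction the difference was 0.69 (limma adjusted p = 0.0493), and Kifc3 was then the 1 kinesin past the threshold, against 1.04% of all genes and features. The probe lies on chromosome 8 from 97623952 to 97624011 (mm9, minus strand). Kifc2, a related motor known from neurons, differed by 0.52 ± 0.30.

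**Figure D5:**
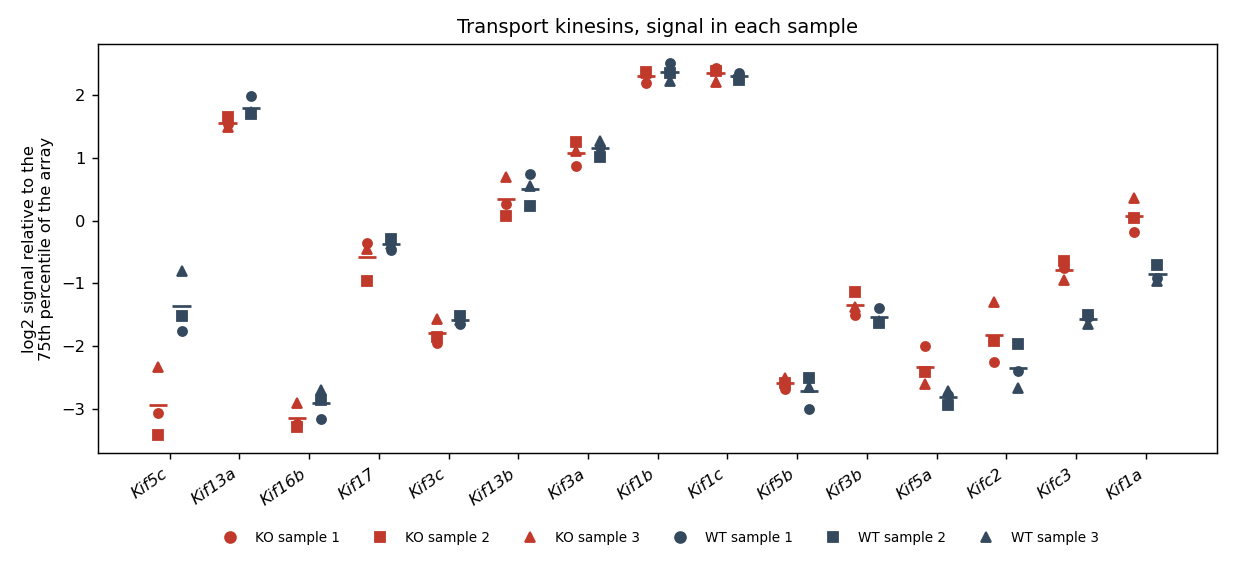
Signal of each of the 15 transport kinesins (x axis) as log2 relative to the 75th percentile of the array (y axis), with 1 mark for each of the 3 KO samples (red) and 3 WT samples (blue) and a line at each group's mean. Kif5c at the left lies lower in all KO samples, Kifc3 and Kif1a at the right lie higher in all KO samples, and in most genes between them the marks of the groups mix.

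The proteins that link transport kinesins to cargo also lay near 0. Of 21 listed light chains and adaptors, 20 were measured, and their differences ran from -0.24 to 0.20 with a median of -0.024, 13 below 0 and 7 above. In 0 of the 20 did the samples of the groups stand apart in either direction, against 16.7% of all genes and features, and 0 had an unadjusted limma p under 0.05, against 11.0%. The members with the smallest p were Kifbp, which binds the motor heads of some kinesins, with -0.16, Rhot2, which ties mitochondria to motors, with -0.17, and Klc1, a kinesin-1 light chain, with 0.16.

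Cytoplasmic dynein and dynactin, which move the opposite way on microtubules, gave a median of 0.024 over 25 measured genes of 26, with 11 below 0 and 14 above. Nde1, a dynein regulator that acts in mitosis and in migrating neurons, had the smallest p of them. It had 2.20, 2.24 and 2.26 in the KO samples, against 2.95, 2.68 and 3.03 in the WT samples. All KO samples lay close together below the WT samples, and the difference was -0.65 ± 0.14 (SE; limma adjusted p = 0.16). Its relative Ndel1 differed by 0.22, and the dim adaptor Hook1, well above background on 5 of the 9 arrays, by 1.89 ± 0.93.

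Kif21b had the largest difference of the 40 measured kinesins. It slows the growth of microtubule ends and is known from neurons and lymphocytes. Its signal was -3.23, -4.38 and -3.06 in the KO samples, against -1.08, -1.56 and 0.25 in the WT samples. The groups lay far apart, and the samples within each were widely spread. The means were -3.56 ± 0.72 in KO and -0.80 ± 0.93 in WT (SD, n = 3 each), a difference of -2.76 ± 0.56 (SE; limma adjusted p = 0.15), with WT 6.78-fold over KO. The difference was -3.25 within slide 1, -1.89 within slide 2 and -2.19 with normexp background correction (limma adjusted p = 0.053). The probe lies on chromosome 1 from 138074490 to 138074549 (mm9, plus strand).

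The remaining 11 other kinesins gave differences between -0.66 and 0.28, and several of them are motors of cilia. Kif7, which sits at the tip of the primary cilium and regulates Hedgehog signalling, differed by -0.35 ± 0.14, with the KO samples at -0.38, -0.37 and -0.42 and the WT samples at 0.19, -0.23 and -0.086. The KO samples were nearly equal and lay below all WT samples at this probe, while another Kif7 probe gave -0.076 with overlapping samples. Kif9, a motor of motile cilia and sperm tails, differed by 0.27 ± 0.14 at the brightest probe, with all KO samples above all WT samples. The other 3 kept Kif9 probes gave 0.13, 0.077 and -0.052. Kif27, which motile cilia need, differed by -0.66 ± 0.61, and by -0.099 without WT sample 1 and -1.13 without KO sample 3. The other 8 genes ran from -0.073 to 0.28 with overlapping samples. They were Kif2a, which shortens microtubule ends like Kif2c, Kif24 and Kif19a, which do so at centrioles and cilia, Kif21a, the close relative of Kif21b, Kif26a, which binds microtubules without moving, its relative Kif26b, Kif6 and Kif12.

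Paired KO arrays were taken here as repeats of the same sample, while their titles call each a biological replicate. A fit that counts all 9 arrays separately passed 5 kinesins at the adjusted threshold, against 4.24% of all genes and features. These were Kifc1, Kif5c and Kif21b lower and Kif1a and Kifc3 higher. With the sample as a random block, 4 passed, the same without Kifc3, against 1.92%. Both fits take degrees of freedom from repeat arrays, so their p may be too small.

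Markers of some other cell types lay mostly higher in KO. Of all the markers listed, only Pdgfrb passed the adjusted threshold, against 0.141% of all genes and features. The satellite cell markers had a median near 0, of 0.052 over 15 genes, and all 15 were well above background on all 9 arrays. Their differences ran from -0.35 to 0.75, with 5 below 0 and 10 above. In 1 of them all KO samples lay below all WT samples and in 2 above, against 8.09% and 8.62% of all genes and features. All 12 endothelial markers lay higher in KO, with a median of 0.96, and 8 of them were well above background on all 9 arrays. The endothelial median was 1.73, 0.17 and 0.99 in the KO samples and -0.12, 0.32 and -0.17 in the WT samples. Pecam1 and Ly6a, which encode the sort antigens CD31 and Sca1, were each well above background on 8 of the 9 arrays and differed by 1.97 and 1.82. Ptprc and Itgam, which encode the sort antigens CD45 and CD11b, were well above background on all 9 arrays and differed by -0.022 and -0.079. Of 12 mesenchymal markers 10 lay higher, with a median of 0.91 and sample medians of 1.06, 0.28 and 0.90 in KO and -0.12, 0.094 and 0.079 in WT. All KO samples lay above all WT samples in 3 of the 12 endothelial and 6 of the 12 mesenchymal markers, against 8.62% of all genes and features. KO sample 2, in which the mitotic kinesins lay nearest to WT, had the lowest of the KO medians in both lists. The part of these cells in the differences of the kinesins was not tested.

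Of 12 measured glial and neural markers, 8 lay higher and 4 lower in KO, with a median of 0.57. In 4 of the 12 all KO samples lay above all WT samples and in 1 below, against 8.62% and 8.09% of all genes and features. The sample medians were 0.51, 0.28 and 0.45 in KO and 0.10, -0.094 and 0.0035 in WT. Mbp (1.38 ± 0.18), which encodes a protein of myelin, lay higher and Ncam1 (-0.44 ± 0.10) lower. Kif1a, Kif5a and Kif5c, which are best known from neurons, thus lay on both sides of 0 in samples whose neural list lay above 0, and the part of that list in their differences was not tested. All 11 mural markers lay higher, with a median of 0.32, and in 4 of them all KO samples lay above all WT samples, against 8.62%. Pdgfrb lay higher by 1.35 (limma adjusted p = 0.0377), the 1 of the 11 past the threshold, against 0.141% of all genes and features. The 8 measured myeloid and lymphoid markers had a median of -0.045 and the 10 measured muscle fibre markers one of 0.15.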

How the data were processed

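RNA was extracted and amplified from sorted cells and hybridised to 1-colour arrays, per the labels' protocols. The deposited scanner files give spot intensity on a linear scale, background-subtracted, corrected for spatial trends and with a surrogate for dim spots, without normalization between arrays, per the file headers. Gene names and mm9 probe positions are those of the files, and of the kinesin probes 57 of 61 matched RefSeq by accession. The authors also deposited a table of log2 values, with column medians from 8.03 to 8.04. The sources used here do not give how it was normalized or corrected for background, and its scale was read from the values. It served as an alternative.

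Here log2 of the processed signal was taken relative to the 75th percentile of each array. Outlier spots (93 to 148 an array) were left out, repeat spots averaged and 35 empty values filled with the probe's mean on the other arrays. The filter on dim probes (3 or more arrays of 9 well above background) kept 42983 probes and removed 12698, and the brightest was used for each gene. KO replicates 1 and 4, 2 and 5, and 3 and 6 were averaged, since the SD of 1 spot between such arrays (0.106 to 0.138) was close to that between repeat spots of an array (0.0762 to 0.125), against 0.262 to 0.503 for other pairs. KO was set against WT in limma (version 3.58.1, R 4.3.3, functions lmFit and eBayes), with statmod 1.5.0 and the package data.table (version 1.17.8), after a check on simulated data. The residual degrees of freedom were 4, to which the prior added 2.04. Files were read with pandas 2.3.3 in Python 3.11.15, and plots were drawn with matplotlib 3.10.9. Normexp background correction used an offset of 50.

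Values of every sample are given for each measured mitotic kinesin, the 8 transport kinesins with the brightest probes and any other kinesin with an unadjusted limma p under 0.05, and examples from the other lists come from their 3 genes with the smallest p, of which 1 is not reported here. Kif5b, Kif7, Cenpe, Hmmr and Numa1 were added, and the remaining examples chosen, after their values were seen. The members, classes and lists were chosen with earlier results of these data known, so no list has a p of its own. Alternatives were the background correction, the scaling, the deposited table, the filter, the slide, arrays counted as samples, a replicate block, left-out samples, the KO array with the conflicting label, the probe rule and the promoter window.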

Additional observations from a re-analysis of the deposited data

How the results depend on the processing

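The median of the mitotic kinesins stayed below 0 under all 20 alternatives, at -0.75 with normexp and -0.79 in the authors' deposited table. With 1 sample left out it ran from -1.17 to -0.48, the last without KO sample 3, and the mitotic genes with separate groups numbered 6 to 10, the last without KO sample 2, where fewer samples make overlap less likely. That number was 5 with normexp, quantile scaling, the array median and the deposited table, and 4 in both fits of 9 arrays. The median of the transport kinesins was -0.025 with quantile scaling, -0.14 with the array median, -0.012 within slide 2, and -0.083 to 0.00016 with 1 sample left out. Transport genes with separate groups numbered 1 lower in both fits of 9 arrays and 1 higher with the mean of all probes. With 1 sample left out they numbered 2 to 4 lower, the most without KO sample 3, and 3 to 5 higher, the most without KO sample 1. Kinesins past the threshold numbered 1 with normexp, 5 with 9 arrays, 4 with the random block and 0 with any sample left out. The numbers shared by KO and WT samples did not pair them, as the correlations of their deviations were -0.043, 0.025 and 0.0077, and the replicate block gave the same medians of -0.86 and -0.059 and 0 kinesins past the threshold. In the last 150 of the 300 bases of each promoter window, TTTGAA was in 8.01% and CCAAT in 23.4% of all promoters, against 69.2% of mitotic ones for each. Of 799 gene values, 766 kept their direction and 33, in 14 of 40 genes, did not; the cause was not tested. Opposite values were -0.013 for Kif12 and -0.035 for Kif1c with the array median, -0.0085 for Kif12 in the deposited table, 0.030 for Kif24 with the slide block, 0.022 for Kif6 within slide 1, and 0.12 for Kif21a, 0.21 for Kif24, 0.095 for Kif2a and -0.0044 for Kif5b within slide 2. With the mean of all probes they were 0.57 for Kif26a, 0.0018 for Kif6, 0.0082 for Kif2a, 0.12 for Kif3a, -0.081 for Kif1c and -0.59 for Kif5a. With 1 sample left out, genes that crossed 0 ran from -1.81 to 0.071 for Kif18a, -0.50 to 0.24 for Kif18b, -0.19 to 0.074 for Kif26a, -0.19 to 0.010 for Kif21a, -0.16 to 0.15 for Kif24, -0.10 to 0.090 for Kif6, -0.13 to 0.034 for Kif2a, -0.069 to 0.22 for Kif12, -0.25 to 0.72 for Kif26b, -0.16 to 0.021 for Kif3a, -0.13 to 0.017 for Kif1b and -0.011 to 0.24 for Kif5b. No listed alternative was left out, but Kif18a did not pass the filter for all 9 arrays, and slide 2 allowed no test.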
